A study of Mus musculus with 12 samples.

Results

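The endoplasmic reticulum (ER) genes described here are 37 listed genes whose proteins fold new proteins in the ER, carry them across its membrane, attach sugars to them, or return misfolded ones for degradation. They are 37 of the 18193 genes that a probe set of their own represented on whole-genome Affymetrix mouse arrays, on which each probe set reports the RNA level of a gene from several short probes. Each gene was read from its brightest probe set, that is, the one with the highest mean log2 value on the 12 arrays, and further probe sets of the same gene served as a check. All 37 passed the filter on low values, a log2 value above 5 on at least 3 arrays, as did 15237 genes in all. The list follows function and its rule uses no measured value, although it was drawn up with earlier results of these data known. Together the members have 88 probe sets.

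RNA came from mice of the C57BL6 strain, either wild type (WT) or Sgpp2-/- (KO), and each genotype was kept on normal or high fat food, with 3 arrays in each of the 4 groups: WT normal, KO normal, WT high-fat and KO high-fat. The Sgpp2 protein, sphingosine-1-phosphate phosphatase 2, sits in the ER membrane and dephosphorylates the signalling lipid sphingosine-1-phosphate, and the series title connects it with ER stress and proliferation of islet β-cells. The labels name no tissue and the title names pancreatic islets; age, diet composition, time on the diet, the design of the Sgpp2 allele and whether an array holds RNA of 1 mouse are not given in the labels. The question for these genes is whether the ER folding and degradation machinery differs in RNA level with the genotype, the diet or both. In tissue RNA of this kind, fewer cells of a type and less RNA per cell cannot be told apart.

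Insulin is made as a precursor that enters the ER through the Sec61 channel, is folded and given its disulfide bonds there, and is sent on only when folded. Hspa5 (BiP), an Hsp70 chaperone, binds unfolded chains with the help of J-domain co-chaperones, disulfide isomerases shuffle the bonds between cysteines, calnexin and calreticulin hold glycosylated chains, and chains that fail are drawn back to the cytosol by ER-associated degradation (ERAD). When unfolded protein builds up, the sensors Ern1 (IRE1), Atf6 and Eif2ak3 (PERK) start the unfolded protein response, in which the factors ATF6 and XBP1 bind short elements in the promoters of many of these genes.

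The rule for the members names no sequence. Such elements are already known from promoters of many of these genes, so their shares among members are no independent check. Promoter stretches are shown first for 5 members with such an element and for 2 called higher in KO without one. They are the bases from 170 to 21 before the start of transcription, from RefSeq windows of build GRCm38.p6, written 5′ to 3′ on the strand of the gene, with a match to an ER stress element or element II in capitals and everything else in lower case.
Hspa5: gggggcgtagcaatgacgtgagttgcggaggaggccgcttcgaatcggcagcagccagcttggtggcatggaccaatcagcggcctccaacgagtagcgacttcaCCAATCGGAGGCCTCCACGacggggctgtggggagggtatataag
Herpud1: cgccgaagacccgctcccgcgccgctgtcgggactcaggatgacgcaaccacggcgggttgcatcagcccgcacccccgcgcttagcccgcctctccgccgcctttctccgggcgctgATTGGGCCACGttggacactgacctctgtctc
Hsp90b1: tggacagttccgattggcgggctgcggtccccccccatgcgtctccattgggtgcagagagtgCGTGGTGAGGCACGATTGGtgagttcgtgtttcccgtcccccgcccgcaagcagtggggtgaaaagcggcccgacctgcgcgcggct
Canx: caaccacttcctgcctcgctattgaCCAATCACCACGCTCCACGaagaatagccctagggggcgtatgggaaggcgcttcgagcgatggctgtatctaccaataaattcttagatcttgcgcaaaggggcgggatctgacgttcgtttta
Dnajc3: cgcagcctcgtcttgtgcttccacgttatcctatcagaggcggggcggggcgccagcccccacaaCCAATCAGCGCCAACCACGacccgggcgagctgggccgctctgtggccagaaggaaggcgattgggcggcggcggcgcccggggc
Sec63: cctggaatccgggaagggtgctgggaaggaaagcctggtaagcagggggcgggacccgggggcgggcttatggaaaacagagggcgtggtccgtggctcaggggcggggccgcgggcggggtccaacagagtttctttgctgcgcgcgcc
Stt3a: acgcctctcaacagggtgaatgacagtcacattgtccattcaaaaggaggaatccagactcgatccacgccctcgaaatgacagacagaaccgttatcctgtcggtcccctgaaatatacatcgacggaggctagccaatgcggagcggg
The Hspa5 stretch lies at chr2:34771920-34772069, Herpud1 at chr8:94386259-94386408, Dnajc3 at chr14:118937762-118937911 and Sec63 at chr10:42761326-42761475, all on the plus strand. Hsp90b1 lies at chr10:86705465-86705614, Canx at chr11:50325694-50325843 and Stt3a at chr9:36767643-36767792, all on the minus strand. The capitals of Hspa5, Canx and Dnajc3 spell the ER stress element in its forward direction, those of Hsp90b1 spell it in reverse, and those of Herpud1 spell element II.

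The ER stress element was searched as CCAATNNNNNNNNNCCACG, where N is any base, on both strands of windows from 250 bases before to 50 after the start, and 33 of the 37 members had a window (Manf, Derl1, Hyou1 and Sec61a1 had none). It occurred in 9 of the 33 members, 27.3%, against 37 of all 27025 genes with a window, 0.137%, so that members made up 24.3% of its holders. Those members were Hspa5, Hsp90b1, Canx, Calr, Pdia6, Dnajc3, Creld2, Derl3 and Syvn1, with 2 matches in Hsp90b1. Element II, ATTGGNCCACG, occurred in Herpud1 and Dnajb11, 6.06% of members against 0.0444% of genes. The XBP1/ATF6 element, TGACGTGG, occurred in Txndc5 and Txndc11, again 6.06% of members, against 0.714% of genes. At least 1 of these motifs was present in 13 of 33 members, 39.4%, against 0.884% of all genes; their 14 matches shared no bases, and 13 of them lay between 26 and 212 bases before the start. Over all 32851 promoter windows, some of which belong to the same gene, the shares were 0.119% for the ER stress element, 0.0365% for element II and 0.676% for the XBP1/ATF6 element. A match describes letters in the window and not a bound factor.

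The genotype and the tissue were checked before the results. Sgpp2 itself read 11.00 to 11.17 on the 6 KO arrays and 11.46 to 11.63 on the 6 WT arrays, without overlap, and was lower in KO by an average over the diets of -0.46 (SE 0.05, limma adjusted p = 0.00327); where its probes lie relative to the deleted part is not known from the labels. β-cell markers were high on every array, with array means over 11 of 14 listed markers of 12.91 to 13.13, and Ins2 (insulin) had a mean log2 value of 14.57. Acinar markers, genes of the digestive-enzyme cells of the exocrine pancreas, which also have an extensive ER, were high too: the array means over 18 of 21 listed markers were 12.55 to 12.89 in WT normal, 12.79 to 13.15 in KO normal, 12.34 to 12.85 in WT high-fat and 12.64 to 12.73 in KO high-fat. On the first principal component of all genes, the array WT high-fat 2 scored 6.5 and lay among the KO arrays, which scored 2.4 to 26.2, while the other WT arrays scored -21.1 to -7.5. One member, Edem3, lies on chromosome 1 with Sgpp2, and the 37 members lie on 14 chromosomes.

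Averaged over the diets, 4 of the 37 genes rose in KO and 0 fell: Derl1 of ERAD, the translocation factor Sec63, the oligosaccharyltransferase subunit Stt3a and the lectin chaperone Canx. Their log2 differences were 0.30, 0.27, 0.23 and 0.19, that is 1.23-, 1.21-, 1.17- and 1.14-fold. Among all 15237 genes tested, 6.32% were called in either direction and 3.3% were called higher, so that 4 of 37 stands against that background. The median difference of the members was -0.02, beside -0.04 for all genes tested, and 16 members were higher and 21 lower. Of the disulfide and prolyl isomerases, 9 of 10 were lower in KO, with a median of -0.14, where 40.5% of all genes were higher. The 9 included Erp44 at -0.01, and 0 of the 10 were called. At an unadjusted p under 0.05 limma gave 0 higher and 2 lower, where 10.8% of all genes were higher and 17.8% lower. The isomerase counts use the brightest sets, and 30 of the members' 50 further sets had an average difference of the opposite sign. Each comparison was fitted with limma on all 12 arrays with Benjamini-Hochberg adjustment over 15237 genes, and a gene is called when its adjusted p is under 0.05.

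Within each diet, 0 members were called between the genotypes. On the normal diet 0.84% of all genes were called, 21 members were higher and 16 lower, and the median was 0.03 against -0.05 for all genes. At an unadjusted p under 0.05, limma gave 6 members higher and 0 lower on that diet, where 8.79% of all genes were higher and 13.3% lower. Without WT high-fat 2 the adjusted count on the normal diet was 1, Derl1. On the high-fat diet 0.0263% of all genes were called, 14 members were higher and 23 lower, and the median was -0.04 against -0.03 for all genes. There the unadjusted count was 4 higher and 3 lower, and 6.27% of all genes were higher and 7.09% lower. Without WT high-fat 2 the median on the high-fat diet was -0.12 and 1 member, Herpud1, was called. This array was singled out because it lay among the KO arrays on the first principal component, so its removal tends to widen genotype differences on the high-fat diet and on average. It does not enter the difference on the normal diet. There its removal changes only the estimate of spread shared by the groups and the genes that pass the filter. Both within-diet comparisons enter the average and are not independent of it.

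**Figure D1:**
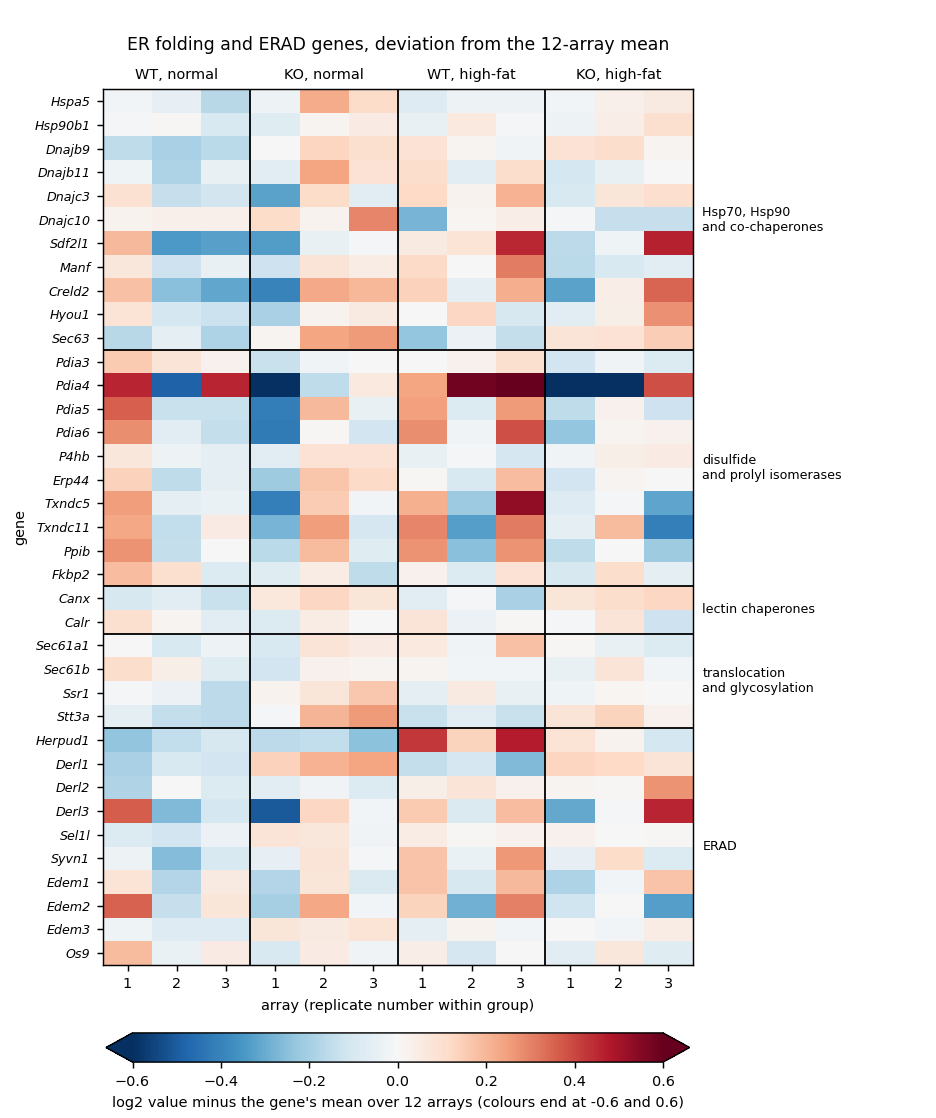
Heat map of the 37 genes, grouped by role (rows), on the 12 arrays (columns, by group and replicate number). Colour is the log2 value minus the gene's own mean over 12 arrays, and colours end at -0.6 and 0.6. Derl1, Sec63, Stt3a and Canx lie above their own means on most KO arrays, with Stt3a at its mean on KO normal 1. Pdia4 has the widest range, 2.19.

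Derl1, a membrane protein of the channel that draws misfolded chains out of the ER, had the largest average difference among members called. Its log2 values were 12.55, 12.65 and 12.63 in WT normal, 12.88, 12.95 and 12.98 in KO normal, 12.60, 12.64 and 12.48 in WT high-fat and 12.87, 12.86 and 12.82 in KO high-fat. Every KO array was above every WT array on either diet. The average difference was 0.30 (SE 0.05, 95% confidence interval 0.19 to 0.41, adjusted p = 0.0104), with 0.32 for normal food (adjusted p = 0.0582) and 0.27 for high fat food (adjusted p = 0.158). The other 3 probe sets of Derl1 did not share this difference: their average differences were between -0.12 and -0.04. The call therefore belongs to 1 of 4 probe sets, and when the mean of all 4 was used the average difference was 0.02 (adjusted p = 0.862).

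Sec63, a membrane J-domain protein that works with Hspa5 at the Sec61 channel, read 11.84, 11.95 and 11.82 in WT normal, 12.02, 12.24 and 12.26 in KO normal, 11.77, 11.97 and 11.86 in WT high-fat and 12.08, 12.09 and 12.15 in KO high-fat. The groups did not overlap within either diet. The average difference was 0.27 (SE 0.06, 95% confidence interval 0.14 to 0.41, adjusted p = 0.0291). Another probe set, 1424924_at, was higher by 0.38 (SE 0.09, adjusted p = 0.0252 in the fit over probe sets), and 1424926_at had a difference of -0.27, while 1419819_s_at was at 0.01 and 1452854_at at 0.09. With the mean of all 5 sets the average difference was 0.09 (adjusted p = 0.319), which ended the call. Sec63 has no match to the motifs above.

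Stt3a is the catalytic subunit of the oligosaccharyltransferase that adds N-glycans to chains as they enter the ER. Its values were 13.51, 13.42 and 13.41 in WT normal, 13.56, 13.77 and 13.82 in KO normal, 13.43, 13.50 and 13.43 in WT high-fat and 13.64, 13.70 and 13.59 in KO high-fat. The KO arrays again lay above the WT arrays within each diet, with KO normal 1 nearest to them. The average difference was 0.23 (SE 0.06, 95% confidence interval 0.10 to 0.35, adjusted p = 0.0392). Its brightest set, 1455824_x_at, is of the kind that the array design marks as able to bind other transcripts. With the mean of all 4 sets the difference of Stt3a was 0.15 (adjusted p = 0.091). The brightest sets of Derl1 (1437723_s_at) and Canx (1415692_s_at) carry another suffix, s_at, which marks probes shared by several transcripts.

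Canx (calnexin) is a membrane lectin that holds glycosylated chains during folding. It read 13.14, 13.17 and 13.10 in WT normal, 13.30, 13.36 and 13.31 in KO normal, 13.17, 13.23 and 13.04 in WT high-fat and 13.31, 13.34 and 13.36 in KO high-fat. All 6 KO arrays were above all 6 WT arrays. The average difference was 0.19 (SE 0.05, 95% confidence interval 0.08 to 0.30, adjusted p = 0.0448), and it was 0.19 on each diet. Of its further probe sets 1428935_at was at 0.34 (adjusted p = 0.0374 in the fit over probe sets) and 1422845_at at -0.01, and with the mean of all 3 the difference was 0.17 (adjusted p = 0.139). Calr (calreticulin), the soluble counterpart of Canx, had an average difference of -0.03. Its further sets 1456170_x_at and 1417606_a_at were at 0.04 and -0.14. On the high-fat diet 1417606_a_at was at -0.29 (adjusted p = 0.196 in the fit over probe sets).

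These calls lay near the threshold for all but Derl1. With the mean of all probe sets of a gene, none of the 4 was called. With the replicate number as a block, Derl1 and Sec63 of the 4 remained called, and with same-numbered KO arrays as a random block only Derl1 did. Leaving out each of the 12 arrays in turn gave between 1 and 5 members called, with Derl1 among them each time. Without WT high-fat 2 the count was 5 and took in Herpud1, which was then lower in KO, and without KO high-fat 3 it was 2, Derl1 and Pdia4, the latter lower. Leaving out WT normal 1, WT normal 3, KO normal 2, KO normal 3, WT high-fat 1, WT high-fat 3 or KO high-fat 2 left 1 call, and leaving out WT normal 2 or KO high-fat 1 left 2. Endothelial markers moved with the genotype as well: 8 of 8 were lower in KO on average, 2 of them called (Pecam1 -0.50 and Kdr -0.23), with array means of 9.97 to 10.19 on WT arrays and 9.80 to 10.04 on KO arrays. Acinar markers were higher in KO for 18 of 18 genes on average, with a median of 0.14, 0 called and 5 higher at an unadjusted p under 0.05. T and NK cell markers were higher for 6 of 6 (median 0.15) and macrophage markers lower for 6 of 7 (median -0.24), 0 of either called, and 1 of 8 stromal markers, Pdgfrb, was called higher at 0.34 (adjusted p = 0.0299). The part of these cell type markers in the results was not tested.

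**Figure D2:**
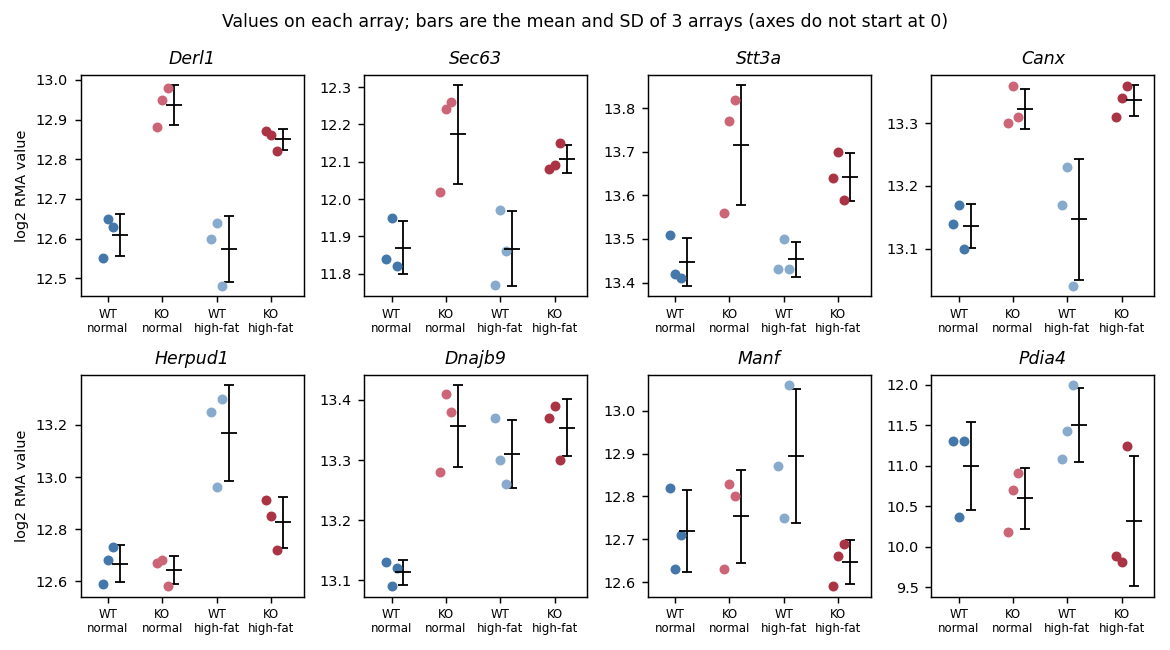
Log2 RMA values (vertical axes, not starting at 0) of 8 genes on each array by group, with bars for the mean and SD of 3 arrays. In Derl1, Sec63, Stt3a and Canx the KO points lie above the WT points within each diet, in Herpud1 the WT high-fat points stand above the other groups, and Pdia4 spreads widely within its groups.

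Groups that do not overlap are a weaker criterion. On the normal diet 8 members lay wholly higher in KO (Derl1, Dnajb9, Edem3, Canx, Sec63, Sel1l, Ssr1 and Stt3a) and 1 wholly lower (Pdia3), where 12% of all genes lay wholly higher and 22.2% wholly lower. On the high-fat diet 5 lay wholly higher (Canx, Derl1, Hspa5, Sec63 and Stt3a) and 3 wholly lower (Herpud1, Manf and Pdia3), where 7.31% of all genes lay wholly higher and 7.52% wholly lower. On both diets the 4 called genes lay wholly higher and Pdia3 wholly lower, where 3.86% of all genes were wholly higher and 3.57% wholly lower on both. The average difference of Pdia3 was -0.13 (adjusted p = 0.128), and this isomerase joins calnexin and calreticulin in folding glycoproteins. Its other probe set, 1445330_at, went the other way, with an average difference of 0.17 (adjusted p = 0.276). The rises of Ssr1 and Sel1l were not shared by all their further sets either. Ssr1 1441327_a_at read 9.77 to 10.17 in WT normal and 9.55 to 9.88 in KO normal. On the high-fat diet it read 9.80 to 10.26 in WT and 9.39 to 9.79 in KO. Sel1l 1425187_at read 10.88 to 11.04 in WT normal and 10.89 to 11.00 in KO normal.

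Among Hsp70, Hsp90 and their co-chaperones, 10 of 11 were higher in KO on the normal diet with a median of 0.12. The 10 included Hyou1 at 0.00, Hsp90b1 and Sdf2l1 at 0.03 and Manf at 0.04. On the high-fat diet 5 of 11 were higher, with a median of -0.02. Of all genes, 40.2% were higher on the normal diet and 43.3% on the high-fat diet. These counts use the brightest sets, and on the normal diet 28 of the members' 50 further sets had the opposite sign. None of the 11 passed the test within a diet, but Sec63 did for the average. At an unadjusted p under 0.05 the counts were 3 higher and 0 lower on the normal diet. On the high-fat diet they were 1 higher and 1 lower. At that threshold 8.79% of all genes were higher and 13.3% lower on the normal diet and 6.27% and 7.09% on the high-fat diet. Acinar markers were higher in KO on the normal diet too, 18 of 18 with a median of 0.26 and 10 at an unadjusted p under 0.05, and on the high-fat diet 15 of 18 with a median of 0.06; their part was not tested. Dnajb9 (ERdj4), a J-domain protein that delivers Hspa5 to its clients, read 13.13, 13.09 and 13.12 in WT normal, 13.28, 13.41 and 13.38 in KO normal, 13.37, 13.30 and 13.26 in WT high-fat and 13.37, 13.39 and 13.30 in KO high-fat. The WT normal arrays stood below all 9 others. On the normal diet KO exceeded WT by 0.25 (SE 0.07, adjusted p = 0.0939), against 0.05 on the high-fat diet, and the interaction was -0.20 (adjusted p = 0.982).

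Dnajb11 (ERdj3), a soluble J-domain partner of Hspa5, read 11.46, 11.30 and 11.44 in WT normal, 11.42, 11.72 and 11.57 in KO normal, 11.59, 11.42 and 11.59 in WT high-fat and 11.38, 11.44 and 11.48 in KO high-fat. All pairs of its groups overlapped. Dnajc10 (ERdj5), a J-domain disulfide reductase that works with ERAD, read 11.88, 11.89 and 11.89 in WT normal, 11.97, 11.88 and 12.15 in KO normal, 11.58, 11.87 and 11.90 in WT high-fat and 11.85, 11.72 and 11.72 in KO high-fat. The 3 KO high-fat arrays were below the 3 KO normal arrays. For KO against WT on the normal diet this brightest set of Dnajc10 was at 0.12. Its further sets 1426904_s_at and 1452230_at were at -0.20 and -0.37.

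Manf, a secreted ER protein that stabilises Hspa5 with its clients, read 12.82, 12.63 and 12.71 in WT normal, 12.63, 12.83 and 12.80 in KO normal, 12.87, 12.75 and 13.06 in WT high-fat and 12.59, 12.66 and 12.69 in KO high-fat. On the high-fat diet the KO arrays lay below the WT arrays. That difference was -0.24 (SE 0.09, adjusted p = 0.316). The other genes of this role had small or variable differences: for the average over the diets Hspa5 was at 0.12, Hsp90b1 (GRP94) at 0.03, Hyou1 (GRP170, a nucleotide exchange factor of Hspa5) at 0.03, Creld2 at 0.03, Sdf2l1 at -0.04 and Dnajc3 (p58IPK) at -0.07. Creld2 and Sdf2l1 ranged over 0.75 and 0.81 across the 12 arrays, and Hsp90b1 over 0.19.

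The isomerases had the lowest median of the 5 roles in KO against WT on either diet. On the high-fat diet 9 of 10 were lower with a median of -0.20, where 43.3% of all genes were higher. On the normal diet 8 of 10 were lower with a median of -0.12, where 40.2% of all genes were higher. None of the 10 was called (unadjusted, 1 was lower on the high-fat diet and 0 passed on the normal diet). These medians use the brightest sets, and further sets did not all share the lean. Of the members' 50 further sets, 28 on the normal diet and 23 on the high-fat diet had the opposite sign. On the high-fat diet Erp44 1423246_at read 9.62 to 9.75 in WT and 9.73 to 9.95 in KO. Pdia3 1445330_at read 9.65 to 10.03 and 9.86 to 10.25. Ppib 1437649_x_at had a slightly lower mean in KO there. Pdia4 (ERp72), a disulfide isomerase with several thioredoxin domains, read 11.31, 10.37 and 11.31 in WT normal, 10.18, 10.70 and 10.91 in KO normal, 11.09, 11.43 and 12 in WT high-fat and 9.89, 9.81 and 11.24 in KO high-fat. KO high-fat 3 stood well above the other 2 arrays of its group, and overlapped with WT. The difference on the high-fat diet was -1.19 (SE 0.40, 95% confidence interval -2.07 to -0.32, adjusted p = 0.258), 2.28-fold lower in KO, and the average was -0.80 (SE 0.28, adjusted p = 0.0987).

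Txndc5, a disulfide isomerase with the XBP1/ATF6 element, read 11.18, 10.87 and 10.89 in WT normal, 10.52, 11.08 and 10.91 in KO normal, 11.14, 10.71 and 11.46 in WT high-fat and 10.85, 10.92 and 10.61 in KO high-fat. Its groups overlapped on both diets, and a second probe set had an average difference of 0.06 against -0.23. For the average Pdia6 was at -0.24, Pdia5 at -0.17, Ppib (cyclophilin B, a prolyl isomerase) at -0.14, Txndc11 at -0.14, Fkbp2 (a prolyl isomerase) at -0.07, Erp44 at -0.01 and P4hb at 0.06. Array means of the 10 isomerases, each gene set against its own mean, were 0.24, 0.15 and 0.32 on WT normal 1, WT high-fat 1 and WT high-fat 3 and -0.28 and -0.20 on KO normal 1 and KO high-fat 1, so that a few arrays within the groups carried much of the spread. The other 7 arrays lay between -0.10 and 0.09.

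In ERAD, where the average called Derl1 and 0 others, Herpud1 had the smallest p of all members for the diet in WT. Herpud1 (HERP) is a membrane protein that organises the ERAD ligase complex and is a strong target of the unfolded protein response. It read 12.59, 12.68 and 12.73 in WT normal, 12.67, 12.68 and 12.58 in KO normal, 13.25, 12.96 and 13.30 in WT high-fat and 12.91, 12.85 and 12.72 in KO high-fat. In each genotype the high-fat arrays lay above the normal arrays, and the 3 WT high-fat arrays were the highest of all 12.

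The diet difference of Herpud1 in WT was 0.51 (SE 0.10, 95% confidence interval 0.30 to 0.72, 1.42-fold, adjusted p = 0.101), and in KO it was 0.18 (adjusted p = 0.708). KO was lower than WT on the high-fat diet by -0.35 (SE 0.10, adjusted p = 0.19). The test of the difference between the genotypes in their diet response, the interaction, gave -0.33 (95% confidence interval -0.62 to -0.03, adjusted p = 0.964). The second probe set of Herpud1 had differences of 0.46 for the diet in WT, 0.17 for the diet in KO and -0.20 for KO on the high-fat diet, in the same directions. Without WT high-fat 2, the array that lay among the KO arrays, the difference on the high-fat diet was -0.45 (adjusted p = 0.0362), the single change of call for this gene in that comparison. This array had the lowest WT high-fat value of Herpud1, 12.96, and was singled out for lying among the KO arrays. The wider difference without it is therefore no independent support.

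Syvn1 (HRD1), the ubiquitin ligase of ERAD, read 10.22, 9.99 and 10.16 in WT normal, 10.20, 10.33 and 10.24 in KO normal, 10.42, 10.21 and 10.51 in WT high-fat and 10.20, 10.36 and 10.17 in KO high-fat. WT high-fat 1 and 3 were its highest arrays. Derl2 read 13.16, 13.34 and 13.26 in WT normal, 13.28, 13.32 and 13.26 in KO normal, 13.38, 13.42 and 13.37 in WT high-fat and 13.36, 13.35 and 13.61 in KO high-fat. In both genotypes the high-fat arrays of Derl2 lay above the normal ones. Its second set, 1435101_at, did not share this, with diet differences of -0.02 in WT and 0.08 in KO and overlapping groups.

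Derl3 read 9.87, 9.24 and 9.40 in WT normal, 9, 9.63 and 9.49 in KO normal, 9.66, 9.42 and 9.69 in WT high-fat and 9.20, 9.50 and 9.96 in KO high-fat. It varied as much within the groups as between them. Of the rest of ERAD, Sel1l, the partner of Syvn1, was at 0.05 for the average over diets, the mannose-trimming factors Edem1, Edem2 and Edem3 were at -0.08, -0.14 and 0.08, and the lectin Os9 was at -0.04. The second set of Os9, 1426975_at, read 9.88, 9.25 and 9.32 in WT normal and 8.82, 9.30 and 8.80 in KO normal. On the high-fat diet it read 9.45, 9.01 and 9.08 in WT and 8.64, 9.18 and 8.77 in KO. Its genotypes overlapped on both diets, and it was not called for the average. In translocation and glycosylation, Sec61a1 and Sec61b, subunits of the channel, were at -0.03 and -0.02, and Ssr1, a subunit of the translocon-associated protein complex, at 0.08.

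Further probe sets gave the largest rises among the members. In the fit over 28689 probe sets, 87 of the members' 88 were tested, and for the average 10 were higher in KO and 1 lower, where 4.36% of all probe sets were called higher and 5.74% lower. The 10 belong to 6 genes, Canx, Derl1, Dnajc3, Hspa5, Sec63 and Stt3a, and the 1 lower to Hyou1 (1451913_a_at, -0.33, adjusted p = 0.044). Dnajc3 and Hspa5 are called by further probe sets and not by their brightest ones. Of the 50 further probe sets tested, from 26 members, 30 had an average difference opposite in sign to that of the brightest set of the gene.

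Dnajc3 (p58IPK) is a J-domain co-chaperone of Hspa5. Its probe set 1449373_at read 8.57, 8.90 and 8.45 in WT normal, 9.39, 9.67 and 9.84 in KO normal, 8.87, 8.98 and 8.48 in WT high-fat and 9.55, 9.69 and 10.05 in KO high-fat. All KO arrays were above all WT arrays. The average difference was 0.99 (SE 0.13, 1.99-fold, adjusted p = 0.00227), and 1433887_at was higher by 0.35 (adjusted p = 0.0138), while the brightest set was at -0.07. Of the other Dnajc3 sets, 1419162_s_at was at 0.12 (adjusted p = 0.433). The genotypes overlapped on both diets in 1419163_s_at. The set with the 1.99-fold difference is the dimmest of the 5.

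The Stt3a probe set 1423033_at read 11.34, 11.51 and 11.25 in WT normal, 11.93, 12.17 and 12.15 in KO normal, 11.22, 11.45 and 11.18 in WT high-fat and 11.89, 11.78 and 11.84 in KO high-fat. The genotypes did not overlap. The average difference was 0.64 (SE 0.07, 1.55-fold, adjusted p = 0.00227), larger than the 0.23 of the brightest set, and the other 2 sets, 1450841_at and 1441417_at, were at -0.05 and -0.20.

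For Hspa5 the probe set 1447824_x_at, which the array design marks as able to bind other transcripts, read 6.77, 6.51 and 6.67 in WT normal, 7.67, 7.72 and 8.36 in KO normal, 6.59, 6.88 and 6.66 in WT high-fat and 6.78, 7.27 and 7.47 in KO high-fat. The KO normal arrays stood apart, and KO high-fat 1 lay below WT high-fat 2. On the normal diet it was higher by 1.27 (SE 0.20, 2.41-fold, adjusted p = 0.0193), and by 0.87 on average (SE 0.14, adjusted p = 0.00539). The 2 bright sets of Hspa5, with means of 13.56 and 13.42, had average differences of 0.12 and 0.09. On the normal diet the probe sets called were this one, Dnajc3 1449373_at (1.00, adjusted p = 0.031) and Stt3a 1423033_at (0.72, adjusted p = 0.0191), 3 in all where 1.03% of all probe sets were called higher, and on the high-fat diet 0 were called, where 0.282% of all probe sets were (unadjusted, 10 of the members' 87 were higher and 12 lower, where 6.43% of all probe sets were higher and 9.31% lower). Leaving out WT normal 1, WT normal 3, KO normal 2 or KO normal 3 ended these 3 calls, with 0 probe sets called, while the average differences of these 3 sets stayed called without each array in turn.

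**Figure D3:**
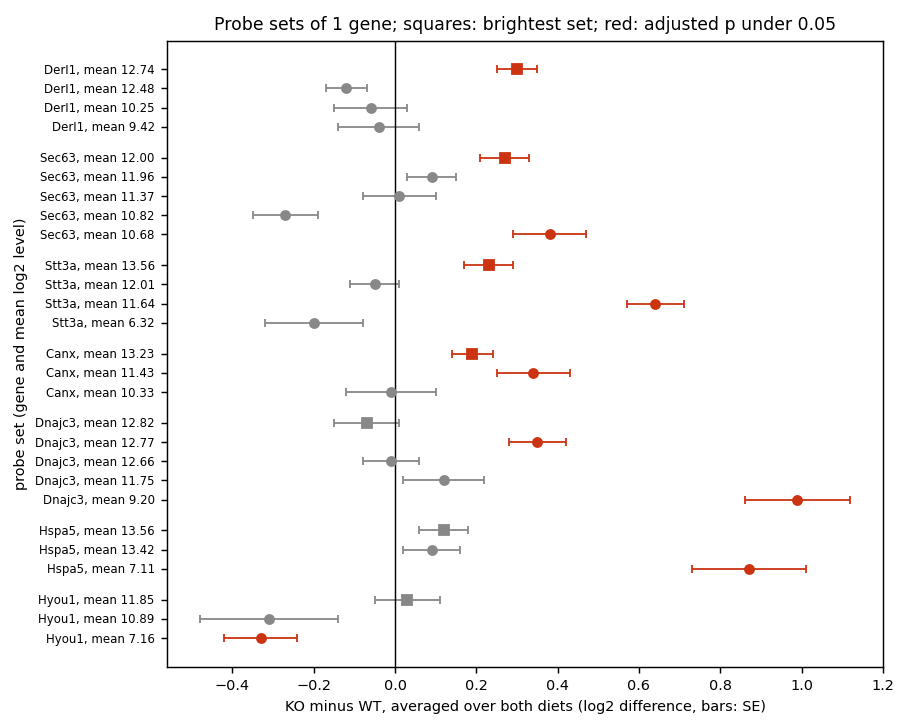
Log2 difference, KO minus WT averaged over both diets, for every tested probe set of 7 genes (bars: SE), ordered by mean log2 level. Squares are the brightest set of a gene and red marks adjusted p under 0.05; the dim Dnajc3 and Hspa5 sets lie farthest to the right, and the other sets of Derl1 lie left of 0.

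The diet comparison in WT had the most members in 1 direction. Of the 37, 29 were higher on the high-fat diet, 78.4%, where 44.6% of all genes were higher, and the median was 0.06 against -0.02. However, 0 members were called, where 0.0788% of all genes were, and at an unadjusted p under 0.05 limma gave 3 higher (Herpud1, Dnajb9 and Syvn1) and 0 lower, where 3.9% of all genes were higher and 7.22% lower. Derl2, Dnajb9, Herpud1 and Sel1l lay wholly higher and 0 members wholly lower, where 5.63% of all genes were wholly higher and 10.2% wholly lower. In order of p, Herpud1, at 0.51, was followed by Dnajb9 at 0.20 (adjusted p = 0.286), Syvn1 at 0.26 (adjusted p = 0.361) and Manf at 0.17 (adjusted p = 0.553). Larger differences than that of Manf, with larger errors, were those of Pdia4 at 0.51 (adjusted p = 0.705), Sdf2l1 at 0.35 (adjusted p = 0.553), Creld2 at 0.23 (adjusted p = 0.761) and Pdia6 at 0.19 (adjusted p = 0.719).

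In KO the diet comparison had no such lean. Of the 37, 14 were higher and 23 lower on the high-fat diet, the median was -0.02 against -0.01 for all genes, and 0 were called, as were 0% of all genes. At an unadjusted p under 0.05 limma gave 0 higher and 1 lower, Dnajc10, at -0.24 (adjusted p = 0.602), where 3.57% of all genes were higher and 4.13% lower. Derl2 and Herpud1 lay wholly higher and Derl1, Dnajc10, Edem3 and Ssr1 wholly lower, where 6.32% of all genes were wholly higher and 6.71% wholly lower. Derl2 had differences of 0.16 in KO and 0.14 in WT. Acinar markers were lower on the high-fat diet in KO for 18 of 18 genes, with a median of -0.22, 0 called and 7 lower at an unadjusted p under 0.05. In KO on the normal diet 18 of 18 were higher than in WT with a median of 0.26, 0 called and 10 higher at an unadjusted p under 0.05; their part in these comparisons was not tested.

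The interaction, which tests whether the genotype difference depends on the diet, called 0 members and 0% of all genes. It was negative for 27 of 37 members, with a median of -0.11 against 0.02 for all genes. At an unadjusted p under 0.05 limma gave 0 members above 0 and 1 below, Herpud1, where 2.99% of all genes were above and 1.98% below. In order of p, Dnajb9 at -0.20, Manf at -0.28 and Dnajb11 at -0.27 followed, each with an adjusted p of 0.982, and Pdia4 had the largest size, -0.79. The diet responses of WT and KO are therefore not shown to differ for any single member.

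**Figure D4:**
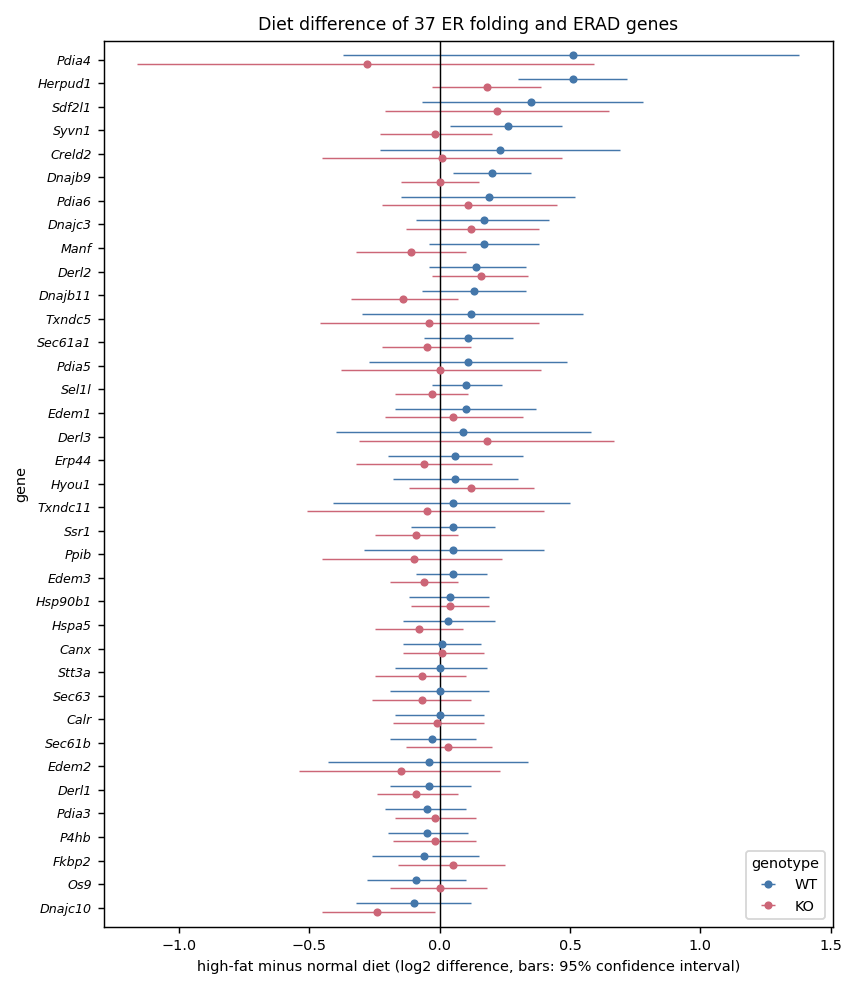
Log2 difference, high-fat minus normal diet, of the 37 genes in WT (blue) and KO (red), with 95% confidence intervals, ordered by the WT difference. In WT 29 of 37 points lie right of 0 and in KO 14 do; the intervals of Herpud1, Syvn1 and Dnajb9 in WT and of Dnajc10 in KO do not reach 0.

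Members with the ER stress element or element II were compared with the others in the diet response of WT. All 11 were higher on the high-fat diet, with a median of 0.13, from 0.00 for Calr to 0.51 for Herpud1. Of the 22 members with a window and neither element, 15 were higher, with a median of 0.05. In KO 7 of the 11 and 6 of the 22 were higher, with medians of 0.01 and -0.03. Between the genotypes, averaged over the diets, 5 of the 11 and 9 of the 22 were higher, with medians of 0.00 and -0.03. Outside the members, 8 other genes with the ER stress element were tested, and in WT 3 of them were higher and 5 lower on the high-fat diet, with a median of -0.04. These are descriptions of the same arrays and no test was made of the lists.

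Other genes of the ER and of the unfolded protein response were read in the same fits. Of 33 tested genes of the unfolded protein response outside the members, 1 was called for the average, where 6.32% of all genes were: Sesn2 (sestrin 2), a stress-induced regulator of growth signalling, fell by 0.59 in KO on the log2 scale (adjusted p = 0.0034) and by 0.66 on the normal diet (adjusted p = 0.0272). Its values were 9.40 to 9.72 in WT normal, 8.76 to 8.98 in KO normal, 9.59 to 9.75 in WT high-fat and 9.07 to 9.26 in KO high-fat, without overlap of the genotypes. In WT 26 of the 33 were higher on the high-fat diet, with a median of 0.05, where 44.6% of all genes were higher. Among the 26 were Eif2ak3 at 0.44 (adjusted p = 0.212), Trib3 at 0.83 (adjusted p = 0.284) and Chac1 at 0.71 (adjusted p = 0.302). Of the 33, 0 were called, and limma gave 4 higher and 1 lower at an unadjusted p under 0.05, where 3.9% of all genes were higher and 7.22% lower.

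Of 81 tested genes of ER folding, translocation, glycosylation and ERAD outside the members, the average called 1 higher and 3 lower in KO, 4 in all, where 6.32% of all genes were called. Hspa13 (STCH), an Hsp70-like ATPase, was higher by 0.24 (adjusted p = 0.032). Uggt2, a relative of the folding sensor that re-glucosylates glycoproteins, was at -0.42 (adjusted p = 0.0147), Mia2, which helps load ER export vesicles, at -0.42 (adjusted p = 0.0235), and Tusc3, a subunit of an oligosaccharyltransferase that acts with Stt3b, at -0.29 (adjusted p = 0.0316). Their list had a median of -0.02, as the members had. On the high-fat diet 56 of these 81 were higher in WT, with a median of 0.04, where 44.6% of all genes were higher. Of the 81, 0 were called, where 0.0788% of all genes were. At an unadjusted p under 0.05 limma gave 3 higher and 1 lower, where 3.9% of all genes were higher and 7.22% lower.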

How the data were processed

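Trizol was used to extract total RNA, of which 4 µg gave biotinylated cRNA for each of 12 arrays, per the labels' protocols. The authors deposited log2 values, 1 for each probe set on each array, made by RMA (which corrects background, normalizes between arrays and summarises probes) with Partek 6.6 also listed, per the submitters' processing notes, without options. RMA equalises the distributions of the arrays, so a shift of most genes together would be hidden. The log2 scale was read from the range of 2.6 to 15.3; array medians were 7.00 to 7.13, and 75.9% to 77.3% of probe sets were above 5. Of 45101 probe sets, 64 were controls, 34945 had 1 symbol in the platform annotation, 932 several and 9160 were not listed; 34741 matched the reference gene table (GRCm38.p6) by Entrez identifier.

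Limma 3.58.1 (R 4.3.3) fitted 1 coefficient per group to 12 arrays (8 residual degrees of freedom, 11.08 after moderation), two-sided, with a threshold of 0.05 after Benjamini-Hochberg adjustment over all genes or probe sets tested; the fit was tested on simulated data. The number of arrays limits the precision: the median SE of a difference of 2 groups was 0.12. Nothing in the labels says that the samples came from separate animals, so p-values measure the spread between samples, which may be technical. The members, gene lists and motifs were chosen with earlier results of these data known. All members are named; those called in any comparison, those among the 4 smallest p-values of a comparison, and the 3 with the widest range are given on every array. From the other lists, called genes and up to 3 with the smallest p per comparison may be named. Values of other probe sets were chosen after they had been seen. Motifs were searched in RefSeq windows. Signals at the ends of the proteins were not analysed here.

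KO arrays with the same replicate number deviated from their group means together on the 2 diets (r = 0.29, 0.38 and 0.14), each over 0.1, and no other pair of groups met this; the meaning of a number is not in the labels, so this pairing rests on the values. Blocks on the number were therefore fitted as alternatives, the random one with a correlation of 0.368. Other alternatives changed the scaling, the filter, the probe set rule, the moderation and the arrays used.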

Additional observations from a re-analysis of the deposited data

How the results depend on the processing

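The values above were recomputed under up to 23 alternatives, giving 1093 values: 920 kept direction and side of the threshold (counts and medians: their size), 117 lost a call, 10 gained one, 42 counts or medians moved and 4 reversed. Those of the probe sets were added after seeing the data. Members called on the normal diet numbered 1 with median centring, with a filter at 6 and with the mean of all probe sets, 3 with the probe set of largest variance and 3 with a trend in eBayes, and 0 to 1 when 1 array was left out. For the high-fat diet the count was 1 with the largest variance and 1 with the trend, and 0 to 1 when 1 array was left out, where the median ran from -0.12 to 0.00. For the average, the replicate block gave 2, the random block on KO pairs 1, cyclic loess 2, the mean of all probe sets 1, and leaving out 1 array 1 to 5. The 1 member called with the mean of all probe sets was not among Derl1, Sec63, Stt3a and Canx. The diet in WT gave 1 with the trend, Herpud1 (adjusted p = 0.0323). The difference of Derl1 reversed with the probe set of largest variance, to -0.01 on the normal diet, -0.07 on the high-fat diet and -0.04 on average, and with the mean of its sets to -0.03 on the high-fat diet, because other probe sets then stand for the gene. Of the members' probe sets, median centring called 5 and the trend 8 on the normal diet, where leaving out 1 array gave 0 to 4. On the high-fat diet the random block called 1 and the trend 3, and leaving out 1 array gave 0 to 5. On average the random block called 7 and leaving out 1 array gave 5 to 16. The replicate block changed no call of the diet or interaction comparisons. Where the cause of a change is not named, it was not tested. With 3 arrays a group, differences near the median SE of 0.12 could not be resolved.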
